A study of Mus musculus with 24 samples.

Results

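The T-cell-rich tumours are the 6 of 24 mammary tumour samples with the highest CD3 score, and the T-cell-poor tumours are the 12 with the lowest. The score is the mean of log2(value + 1) over Cd3d, Cd3e and Cd3g in the deposited table. Its values are nCounter counts deposited as normalized (normalized counts here), with the same housekeeping geometric mean in every sample. The other 6 samples rank between these classes. The samples were thus chosen on measured values, without regard to treatment, so the contrast between the classes is described below without a test. All tumours grew in female neu-N mice of the strain FVB-Neu-N, 7 to 8 weeks old, from NT2.5 cells, a mammary tumour line of this model, placed in the mammary fat pad. Treatment began 3 days later and ran for 3 weeks. Entinostat, which blocks class I histone deacetylases, was given orally at 5 mg/kg each day (ENT in the group names). Antibodies against PD-1 (PD1), CTLA-4 (CTLA4) and HER2 were dosed at 100 µg each, and the vehicle group had isotype antibodies and 0.5% methylcellulose. There were 4 samples each of vehicle and of ENT, 4 of ENT with PD1 (ENT+PD1), 4 with CTLA4 (ENT+CTLA4), 4 with both antibodies (ENT+PD1+CTLA4) and 2 of ENT+CTLA4+HER2. The titles of 2 further samples duplicate ENT+PD1 replicates 1 and 2, and these are called the repeat-titled pair. Per the column headers, vehicle, ENT and ENT+PD1 ran on one nCounter cartridge and all the others on a second one, so arms on different cartridges cannot be told apart from the cartridges. The labels give the whole tumour as the source, while the protocol for the suspensions ends with immune cells being isolated from them, and which of these supplied the RNA is not settled here. The protocol also speaks of studies with and without anti-HER2 antibody throughout, and samples were grouped by their titles.

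CD3 gamma, delta and epsilon are the invariant chains that carry the T cell receptor to the cell surface and pass its signal on through the zeta chain (Cd247) and the kinases Lck and Zap70. They are made by nearly all mature T cells and by few other cells, and so their transcripts serve as a measure of T cells in bulk tumour RNA. In such RNA, fewer T cells and less RNA per T cell cannot be told apart. The 3 genes lie next to each other on mouse chromosome 9, and their promoters are shown because the score rests on these neighbours. The sequences are those of RefSeq (GRCm38.p6), from 250 bases before to 50 bases after each gene's start, written 5′ to 3′ on the gene's strand. Capitals mark the letters AGGAAG (an ETS motif) and CAGNTG (an E-box) on either strand, and no matches overlapped.
Cd3d, chr9:44981536-44981835, plus strand: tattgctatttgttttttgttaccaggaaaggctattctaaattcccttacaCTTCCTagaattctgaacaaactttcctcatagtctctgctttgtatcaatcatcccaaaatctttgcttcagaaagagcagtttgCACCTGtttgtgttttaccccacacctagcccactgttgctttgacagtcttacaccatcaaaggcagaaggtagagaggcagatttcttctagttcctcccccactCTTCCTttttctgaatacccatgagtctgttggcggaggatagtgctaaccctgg
Cd3e, chr9:45009562-45009861, minus strand: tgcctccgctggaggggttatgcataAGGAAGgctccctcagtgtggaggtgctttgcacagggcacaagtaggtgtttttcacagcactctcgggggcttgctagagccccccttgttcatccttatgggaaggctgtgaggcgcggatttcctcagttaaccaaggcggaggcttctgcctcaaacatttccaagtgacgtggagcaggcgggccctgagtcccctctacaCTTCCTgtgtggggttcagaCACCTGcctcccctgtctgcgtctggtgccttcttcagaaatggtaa
Cd3g, chr9:44980382-44980681, minus strand: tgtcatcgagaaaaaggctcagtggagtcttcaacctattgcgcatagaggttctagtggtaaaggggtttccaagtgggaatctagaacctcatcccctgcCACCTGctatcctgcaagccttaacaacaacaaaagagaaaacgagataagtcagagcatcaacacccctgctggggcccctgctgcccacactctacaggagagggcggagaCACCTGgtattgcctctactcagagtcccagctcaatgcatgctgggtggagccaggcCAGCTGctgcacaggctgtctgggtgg
The Cd3d and Cd3e windows each held 2 ETS matches and 1 E-box, and the Cd3g window held 3 E-boxes and no ETS match. TGTGGT, a RUNX motif, was in none of the 3 windows. Of 32851 promoters of this length in the table, 35.4% held AGGAAG, 51.4% held CAGNTG and 16.8% held TGTGGT. A match describes these letters only.

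The ranking put the highest CD3 levels in single tumours of several treated arms. ENT+PD1+CTLA4 replicate 1 led with a score of 7.83, from 221 normalized counts of Cd3d, 155 of Cd3e and 339 of Cd3g. ENT+CTLA4 replicate 6 followed with a score of 6.86 (127 of Cd3d, 66.8 of Cd3e and 179 of Cd3g). ENT+PD1 replicate 6 scored 6.36 (84.1, 50.9 and 126 normalized counts in the same order). ENT+PD1 replicate 5 scored 6.20, with 67.9 of Cd3d, 57.3 of Cd3e and 97.1 of Cd3g, so that both of these ENT+PD1 tumours stood beside each other. ENT+CTLA4+HER2 replicate 2 scored 6.10, with 67.1, 50.4 and 90.4. ENT replicate 3 was the last of the 6 at 4.89, with 40.3 of Cd3d, 23.2 of Cd3e and 25.2 of Cd3g. It sat close to the first sample outside, vehicle replicate 5 at 4.86, and far from the 5 tumours above it. The T-cell-poor tumours began with ENT replicate 4 at 4.31, just below the repeat-titled replicate 2 at 4.46, and ended with ENT+CTLA4 replicate 2 at 3.32.

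**Figure D1:**
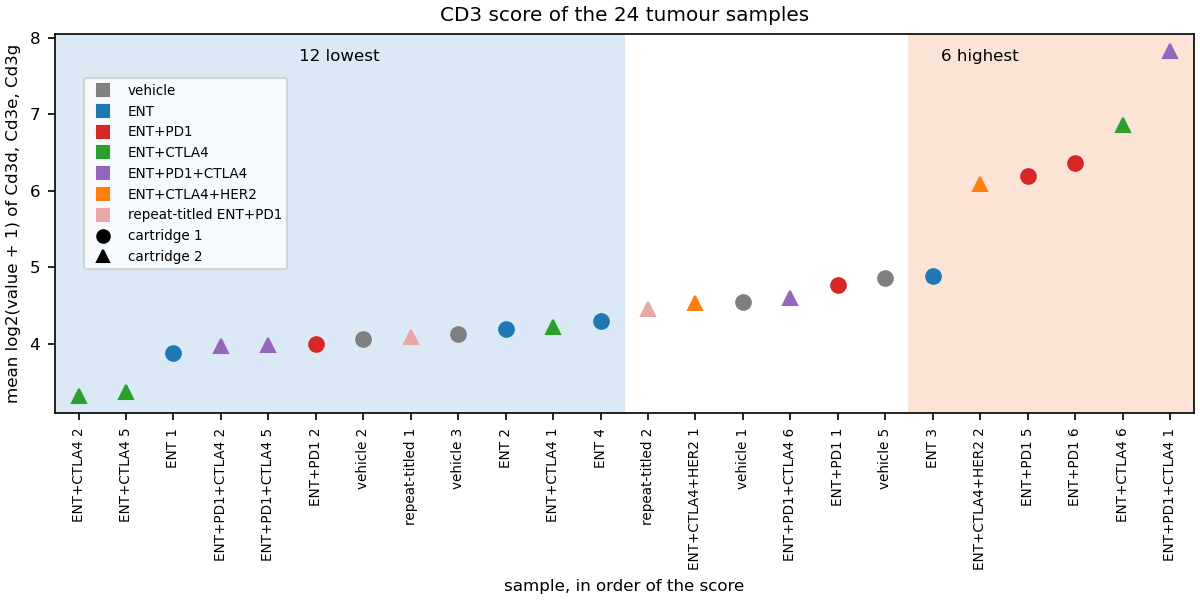
CD3 score (mean log2(value + 1) of Cd3d, Cd3e and Cd3g) of each of the 24 samples in rising order, coloured by arm, with circles for the first cartridge and triangles for the second. The 5 highest samples lie between 6.10 and 7.83, and the sixth, ENT replicate 3 at 4.89, lies next to vehicle replicate 5 at 4.86.

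The classes were spread over arms and cartridges. Each cartridge held 3 T-cell-rich, 3 intermediate and 6 T-cell-poor samples. Of the 4 vehicle tumours, none was T-cell-rich and 2 (replicates 2 and 3) were T-cell-poor. ENT had 1 rich tumour (replicate 3) and 3 poor ones (replicates 1, 2 and 4). ENT+PD1 had 2 rich (replicates 5 and 6) and 1 poor (replicate 2). ENT+CTLA4 had 1 rich (replicate 6) and 3 poor (replicates 1, 2 and 5). ENT+PD1+CTLA4 had 1 rich (replicate 1) and 2 poor (replicates 2 and 5). Of the ENT+CTLA4+HER2 pair, replicate 2 was rich and replicate 1 ranked between, and of the repeat-titled pair, replicate 1 was poor. The other intermediate samples were vehicle replicates 1 and 5, ENT+PD1 replicate 1, ENT+PD1+CTLA4 replicate 6 and the repeat-titled replicate 2.

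Within arms, CD3 levels spread widely from tumour to tumour, and no CD3 chain passed the test in the 4 arm comparisons made, which leave out ENT+CTLA4+HER2. Cd3g, the chain with the widest range, was 21.7, 18.6, 12.5 and 10.1 normalized counts in vehicle tumours and 25.2, 14.7, 13.6 and 10.7 in ENT tumours. In ENT+PD1 it was 126, 97.1, 14.9 and 12.3, so 2 tumours were high and 2 were at the level of vehicle. In ENT+CTLA4 it was 179, 19.5, 9.37 and 8.21, and the 4 ENT+PD1+CTLA4 tumours had 339, 30.3, 18.7 and 18.5, each arm with a single high tumour. The highest tumour exceeded the lowest 21.9-fold in ENT+CTLA4, 18.3-fold in ENT+PD1+CTLA4, 10.3-fold in ENT+PD1, 2.36-fold in ENT and 2.15-fold in vehicle. A limma fit over 621 genes in 22 samples of 6 groups gave 4 comparisons of arms on the same cartridge, and the labels do not state that samples came from separate animals, so its p-values measure only the spread between these samples. For ENT+PD1 against vehicle the log2 change of Cd3g was 1.33 ± 0.99 (SE, n = 4 and 4, limma adjusted p = 0.568), that of Cd3e 0.80 ± 0.84 (limma adjusted p = 0.645) and that of Cd3d 0.67 ± 0.71 (limma adjusted p = 0.645). For ENT+PD1 against ENT the changes were 1.30 ± 0.99 for Cd3g, 0.96 ± 0.84 for Cd3e and 0.77 ± 0.71 for Cd3d (limma adjusted p = 0.408, 0.453 and 0.474). ENT against vehicle gave 0.02 ± 0.99 for Cd3g, -0.16 ± 0.84 for Cd3e and -0.10 ± 0.71 for Cd3d (limma adjusted p = 0.999 for each), and the sign of the Cd3d value turned under median and quantile scaling. ENT+PD1+CTLA4 against ENT+CTLA4 gave 0.88 ± 0.99 for Cd3g, 0.69 ± 0.84 for Cd3e and 0.39 ± 0.71 for Cd3d (limma adjusted p = 1 for each). Without ENT+PD1+CTLA4 replicate 1 these values were -0.09, -0.21 and -0.46. Among all genes, limma called 2 of 621 (0.322%) for ENT+PD1 against ENT and 0 (0.0%) in each of the other 3 comparisons, where 29 genes (ENT against vehicle), 60 (ENT+PD1 against vehicle) and 10 (ENT+PD1+CTLA4 against ENT+CTLA4) had an unadjusted p under 0.05. On counts recovered from the table, edgeR and DESeq2 called no CD3 chain either.

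Depth overlapped between the classes. Recovered counts per sample were 311822 to 483418 in the T-cell-rich tumours and 253341 to 460535 in the T-cell-poor ones, and the factor used to scale them was 0.777 to 1.29 and 0.774 to 1.43. The rich tumours had 548 to 623 genes with a normalized count of at least 20, against 448 to 540 in the poor ones, and these ranges did not overlap. A gene was called above the negative controls where it exceeded their mean plus 2 SD, which lay between 8.54 and 25.3 normalized counts. Genes other than the CD3 chains were described where at least 4 of the 24 samples had a normalized count of at least 20, which kept 598 of 747 endogenous genes and left out 149. Of these, 50 were kept only because of the rich tumours.

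Most of the panel was higher in the T-cell-rich tumours as deposited. The mean log2 value was higher in 485 of the 598 genes and lower in 113, and the median gene differed by 0.37 log2 units. This shift depends on the scaling. After rescaling to each sample's median 273 genes (45.7%) were higher, and after quantile normalization 232 (38.8%), against 81.1% as deposited. Differences are therefore best read against 0.37, and counts of list members with a higher mean against 81.1%. For 11 genes every rich tumour lay above every poor tumour, and for 0 genes below. These are 1.84% and 0.0% of the 598, and 6 of the 11 were kept only through the rich tumours. Those 11 were Icos, Ccr7, Lck, Cd5, H2-DMb2, Il2rb, Ms4a1, Cxcr6, Irf4, Klrd1 and Tbk1. Without ENT replicate 3 the number was 55 (9.2%), which included all 11. Without ENT+CTLA4 replicate 6 it was 17, without ENT+CTLA4+HER2 replicate 2 also 17, and without ENT+CTLA4 replicate 1 it was 20. Each of these is of 598 genes, and smaller classes overlap less by construction.

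Genes of the T cell receptor and its first signalling steps had the highest list median over the genes kept, a rank that rests on members kept only through the rich tumours. All 14 measured members that were kept, of 22 on the panel, had a higher mean in the rich tumours, with a median difference of 1.84. The 7 of them that the other 18 samples alone would keep had a median of 0.63, below the class II (1.46), dendritic cell (1.16), lymphocyte recruitment (0.88), macrophage (0.67) and complement (0.64) lists counted in that way, and without any filter the 22 had 1.72. Lck, the kinase that starts T cell receptor signalling, was 202 normalized counts in ENT+PD1+CTLA4 replicate 1, 92.4 in ENT+CTLA4 replicate 6, 59.1 and 36.3 in ENT+PD1 replicates 6 and 5, 42.6 in ENT+CTLA4+HER2 replicate 2 and 19.2 in ENT replicate 3. In the poor tumours Lck ran from 5.72 to 15.9 with a median of 8.93, and only 5 of those 12 were above the negative controls. The classes did not overlap, and the difference was 2.48 ± 0.49 log2 units (SE, n = 6 and 12), whose size is set in part by background in the poor tumours. Cd5, a surface receptor that dampens T cell receptor signals, ran from 22.2 to 121 in the rich tumours (median 43.6) and from 4.08 to 14.4 in the poor ones (median 7.91), where only 2 of the 12 were above the negative controls. The difference of 2.44 ± 0.37 is therefore largely against background. Cd6, its relative, was 9.08 in ENT replicate 3, below the highest poor tumour at 10.3, and 12.9 to 73.5 in the other 5. Cd4, the co-receptor of helper T cells, was 96.2 in ENT+PD1+CTLA4 replicate 1 and 20.7 to 52.9 in the next 4 rich tumours, but 8.07 in ENT replicate 3, within the poor range of 2.74 to 11.8. Most poor tumours were not above the negative controls for Cd6 or Cd4, so the distance between the classes is set in part by background. Without ENT replicate 3, 9 of the 14 genes did not overlap, against 55 of all 598 (9.2%). Since the other 18 samples alone would keep only 7 of the 14, the filter fixes part of this share in advance. The 2 shares therefore cannot be compared.

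Icos, a costimulatory receptor that T cells put on their surface once activated, was among the 11 genes without overlap. It was 202 and 150 in ENT+PD1 replicates 6 and 5, 175 in ENT+PD1+CTLA4 replicate 1, 109.5 in ENT+CTLA4 replicate 6, 63.3 in ENT+CTLA4+HER2 replicate 2 and 35.3 in ENT replicate 3. The poor tumours ran from 4.56 to 28.6 with a median of 9.73. The difference was 3.24 ± 0.43 log2 units, but only 4 of the 12 poor tumours were above the negative controls, so its size is set in part by background. ENT+PD1 replicate 6 here stood above the tumour with the most CD3, and replicate 5 below it. Il2rb, a signalling chain of the receptors for IL-2 and IL-15, ran from 43.4 to 174 (median 105) against 18.5 to 40.3 (median 22.7), a difference of 1.99 ± 0.32. Il2ra, the chain that gives the IL-2 receptor high affinity and marks activated and regulatory T cells, was 200, 146, 75.7, 74.9 and 54.5 in 5 rich tumours and 25.6 in ENT+CTLA4 replicate 6, within the poor range of 7.30 to 39.5. Irf4, a transcription factor induced by antigen receptor signals, ran from 18.1 to 56.0 against 3.41 to 17.1, a difference of 1.64 ± 0.33 with 3 of the 12 poor tumours above the negative controls. Over the list of helper and regulatory T cell genes, 11 of 14 had a higher mean and the median difference was 0.57, which was 0.14 under median rescaling and -0.12 under quantile normalization. Foxp3, which defines regulatory T cells, did not pass the filter and was 8.07 to 41.5 in the rich tumours and 1.43 to 12.6 in the poor ones.

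**Figure D2:**
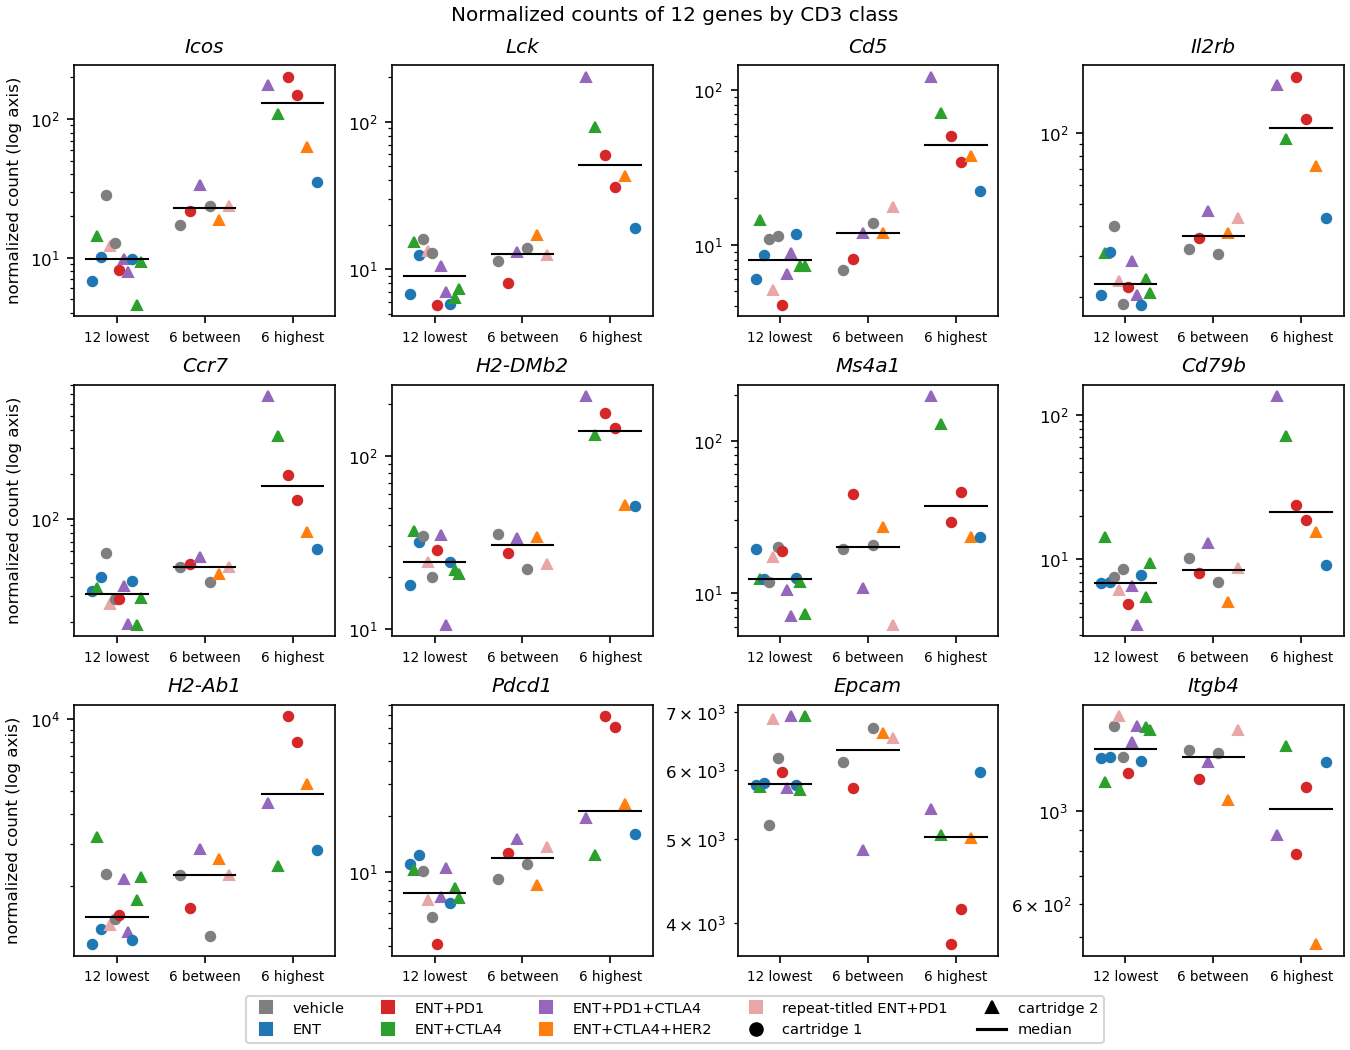
Normalized counts of 12 genes (log axis) in the 12 lowest, 6 intermediate and 6 highest samples by CD3 score, with a point per sample coloured by arm, circles for the first cartridge, triangles for the second and a line at the median. Icos, Lck, Cd5, Il2rb, Ccr7, H2-DMb2 and Ms4a1 do not overlap between the outer classes, while Epcam and Itgb4 are lower in 4 of the 6 highest samples than in any of the 12 lowest.

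Several genes of the cytotoxic list were weak. Of the 9 kept, 8 had a higher mean and the median difference was 0.54. Klrd1 (CD94), a receptor chain of NK cells and some CD8 T cells, ran from 15.5 to 50.8 in the rich tumours and from 4.86 to 13.3 in the poor ones, a difference of 1.47 ± 0.26 with no overlap and 4 of the 12 poor tumours above the negative controls. Ccl5, a chemokine made by memory and cytotoxic T cells, was 170 in ENT+PD1+CTLA4 replicate 1, 164 in ENT+CTLA4 replicate 6, 39.4 to 51.5 in the next 3 tumours and 16.1 in ENT replicate 3, which fell within the poor range of 4.86 to 38.0. Other members were well above the negative controls in both classes. Ccl3 was 134 to 351 in the rich tumours and 132 to 255 in the poor ones, a difference of 0.56 that was 0.04 under median rescaling. Ctsw, singled out with its values in view, was 50.4 to 199 against 86.2 to 215. Cd8a, the co-receptor of cytotoxic T cells, did not pass the filter. It was 51.9 and 27.2 in ENT+PD1+CTLA4 replicate 1 and ENT+CTLA4 replicate 6, the only rich tumours above the negative controls, and at most 11.6 in the other 4. Gzmb and Prf1, the granule proteins that kill target cells, did not pass either. Gzmb was above the negative controls in 1 rich tumour and Prf1 in 2, and neither was in any poor tumour. Ifng was 1.55 to 26.9 in the rich tumours and 4.06 to 21.3 in the poor ones, and its difference of 0.46 turned to -0.30 under quantile normalization. The NK cell list (13 kept, all with a higher mean) had a median of 0.70 that turned to -0.01 under quantile normalization, with 8 of its 21 genes on the panel never above the negative controls. Ncr1, the receptor that defines NK cells, was 11.7 to 24.9 against 8.21 to 17.1, and its difference of 0.37 was -0.41 under quantile normalization.

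Receptors and chemokines of lymphocyte traffic had a median difference of 0.95 over 19 genes. Of these, 2 did not overlap, against 11 of all 598 (1.84%). The other 18 samples alone would keep 16 of the 19, with a median of 0.88. Ccr7, which guides naive T cells, B cells and mature dendritic cells to lymph nodes, was 675 in ENT+PD1+CTLA4 replicate 1, 366 in ENT+CTLA4 replicate 6, 198 and 133 in ENT+PD1 replicates 6 and 5, 81.3 in ENT+CTLA4+HER2 replicate 2 and 62.5 in ENT replicate 3. All 12 poor tumours were above the negative controls, at 19.2 to 58.8, and the difference was 2.49 ± 0.54 log2 units, 5.63-fold. Cxcr6, found on tissue-resident and effector T cells, had another order, with 53.8 and 52.9 in ENT+PD1 replicates 5 and 6 and 42.2 in ENT+PD1+CTLA4 replicate 1. Its range was 17.1 to 53.8 against 6.53 to 15.7, a difference of 1.74 ± 0.29, but only 1 of the 12 poor tumours was above the negative controls.

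The B cell list was mixed, and some of its genes peaked in the 2 tumours that led the CD3 ranking. Over its 7 kept genes the median difference was 1.21 in ENT+PD1+CTLA4 replicate 1, 0.94 in ENT+CTLA4 replicate 6, 1.12 and 1.07 in ENT+PD1 replicates 6 and 5, 0.38 in ENT+CTLA4+HER2 replicate 2 and 0.05 in ENT replicate 3. Ms4a1 (CD20), a surface protein of B cells, was 195 in ENT+PD1+CTLA4 replicate 1 and 128 in ENT+CTLA4 replicate 6. In the other 4 rich tumours it was 23.2 to 45.6, and in the poor ones 7.05 to 19.97, so the classes did not overlap. ENT+PD1 replicate 1, which ranked between, was at 44.8. The difference was 1.93 ± 0.55 over all 6 rich tumours and 1.12 without the leading 2. Cd79b, part of the B cell receptor, did not pass the filter and was singled out with its values in view. Cd79b was 134 and 71.5 in the leading 2 tumours and at most 23.9 in the other 4, against 3.53 to 14.4 in the poor tumours. Cd22, an inhibitory receptor of B cells, was 61.7 in ENT+PD1+CTLA4 replicate 1 but 31.9 in ENT+CTLA4 replicate 6, below the 35.1 of ENT+PD1 replicate 5. Btk, a kinase of B cells that myeloid cells also express, was highest in ENT+PD1 replicate 6 (125, against 73.5 and 68.3 in the leading 2), and Blnk, an adaptor of the B cell receptor, in ENT+CTLA4+HER2 replicate 2 (320, against 172 and 162). Cd22, Btk and Blnk were also singled out with their values in view. The summed level of the 16 B cell genes was 362 to 1178 in the rich tumours and 280 to 500 in the poor ones, with 2 of the 16 never above the negative controls. What part B cells have in Ccr7 or H2-DMb2, which B cells also express, was not tested. Without the leading 2 tumours, 20 of the 598 genes did not overlap, where smaller classes overlap less by construction. Glycam1, a mucin-like glycoprotein made by the high endothelial venules of lymph nodes and also by mammary epithelium, was 131 in ENT+CTLA4 replicate 6 and 62.7 in ENT+PD1+CTLA4 replicate 1, at most 18.7 in the other 4 and at most 6.17 in the poor tumours. It did not pass the filter, and it was singled out with its values in view.

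MHC class II genes, which present antigen to CD4 T cells, had a higher mean for all 11 kept, with a median difference of 1.40. H2-DMb2, a chain of the protein that loads peptides onto class II, ran from 51.4 to 221 in the rich tumours (median 139) and from 10.6 to 36.9 in the poor ones (median 24.3), a difference of 2.16 ± 0.39 with no overlap. H2-Ab1, a class II chain proper, was 10264 and 7988 in ENT+PD1 replicates 6 and 5, 5314 in ENT+CTLA4+HER2 replicate 2, 4429 in ENT+PD1+CTLA4 replicate 1, 2829 in ENT replicate 3 and 2437 in ENT+CTLA4 replicate 6. The last 2 of these lay within the poor range of 1143 to 3215, and the difference was 1.56 ± 0.36. H2-Aa, its partner chain, ran from 5808 to 24989 against 2775 to 6660. H2-Ab1 and H2-Aa were thus highest in the ENT+PD1 tumours and lowest in ENT+CTLA4 replicate 6, whereas H2-DMb2 was highest in ENT+PD1+CTLA4 replicate 1 (221) and was 132 in ENT+CTLA4 replicate 6. Dendritic cell genes (8 kept) had a median of 1.16. Ccl22 and Ccl17, chemokines of mature dendritic cells and macrophages that attract CCR4-bearing T cells, peaked in ENT+PD1 replicate 6 at 178 and 489, against poor ranges of 6.17 to 38.6 and 10.6 to 65.5.

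MHC class I genes and interferon targets differed less. The median was 0.46 over 13 class I genes and 0.31 over 19 type I interferon genes, and both turned negative under quantile normalization, to -0.08 and -0.22. Nlrc5, the activator of class I transcription, stood out among them with 14.1 to 45.4 in the rich tumours and 3.53 to 16.8 in the poor ones, a difference of 1.97 ± 0.31, though 4 of the 6 rich and 3 of the 12 poor tumours were above the negative controls. The 12 genes induced by interferon gamma had a median of 0.68. Cxcl9, a chemokine they include that draws CXCR3-bearing T cells, was 116 in ENT+CTLA4+HER2 replicate 2 and 13.2 to 36.3 in the other 5, against 1.00 to 32.8 in the poor tumours. Tbk1, a kinase upstream of type I interferon, was the smallest of the 11 without overlap, at 93.2 to 118 against 69.0 to 92.6. Its difference of 0.42 ± 0.07 was 0.06 under median rescaling and -0.05 under quantile normalization.

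Checkpoint genes split by tumour. Of 16 kept, 14 had a higher mean, with a median of 0.58. Pdcd1 (PD-1), an inhibitory receptor of activated T cells and the target of an antibody in 2 of the arms with rich tumours, did not pass the filter, since only 3 samples reached the required level. It was 69.5 and 60.9 in ENT+PD1 replicates 6 and 5, 23.2 in ENT+CTLA4+HER2 replicate 2, 19.5 in ENT+PD1+CTLA4 replicate 1, 16.1 in ENT replicate 3 and 12.4 in ENT+CTLA4 replicate 6. In the poor tumours it was 4.08 to 12.4, so the classes met without overlapping. Ctla4, the receptor that competes with CD28 for its ligands, was 187 and 151 in ENT+PD1 replicates 6 and 5 and 112 in ENT+PD1+CTLA4 replicate 1. It was 58.1 in ENT+CTLA4+HER2 replicate 2. In ENT replicate 3 (40.3) and ENT+CTLA4 replicate 6 (30.3) it lay within the poor range of 6.19 to 47.0. Cd274 (PD-L1), the ligand of PD-1, was 185 and 146 in the ENT+PD1 tumours and 125 in ENT+CTLA4+HER2 replicate 2, and 52.4 to 68.1 in the other 3, against 21.3 to 80.6. Lag3, a receptor for class II molecules, differed by 0.89 on the first cartridge and by 0.02 on the second.

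**Figure D3:**
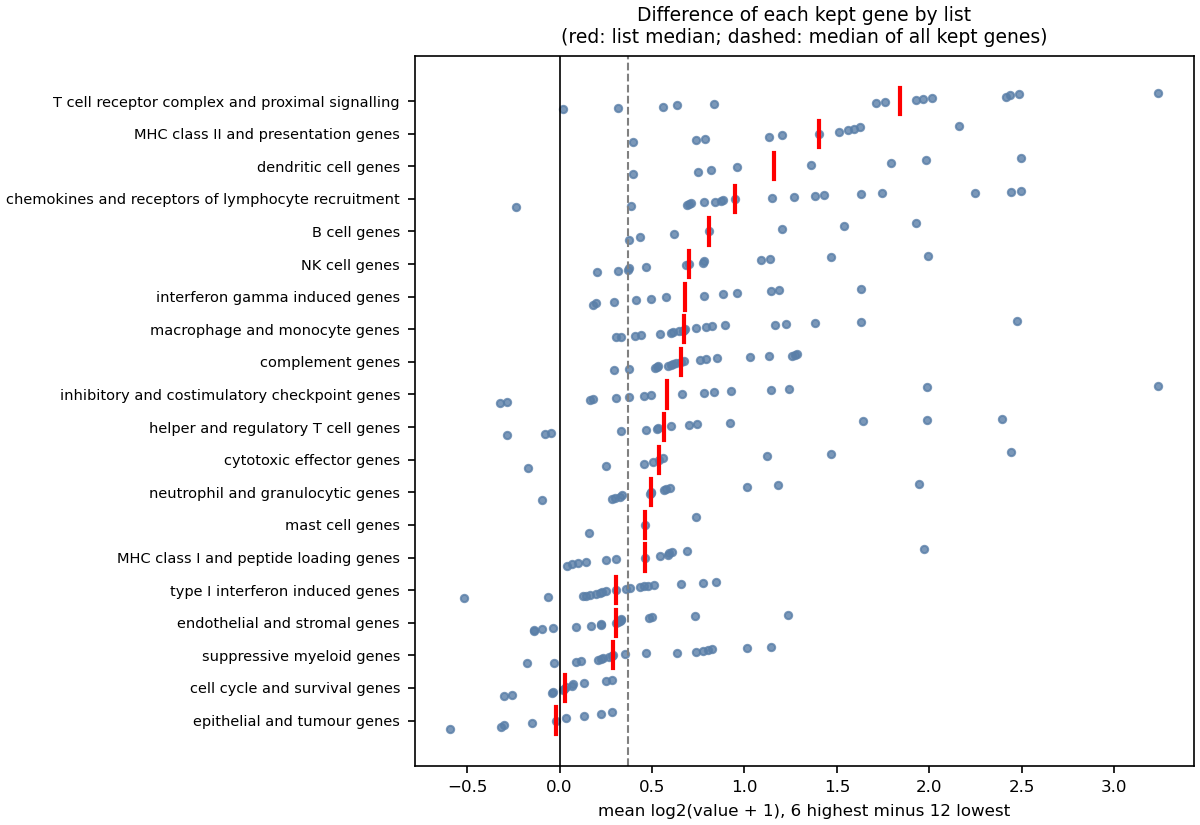
Difference in mean log2(value + 1) between the 6 highest and the 12 lowest samples by CD3 score, with a point for each kept gene of 20 lists, a red bar at the list median and a dashed line at the median of all 598 genes (0.37). The T cell receptor list has the highest median (1.84), which is 0.63 over members that the other 18 samples keep, against 1.46 for class II genes. The epithelial list has the lowest (-0.02). The medians of the NK, MHC class I, helper T cell, mast cell, endothelial, suppressive myeloid, type I interferon and cell cycle lists turn negative under a rescaling.

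Macrophage and complement lists lay above the panel's median of 0.37 by smaller amounts, and the suppressive myeloid list lay below it. Macrophage and monocyte genes had a median of 0.67 (20 kept, all with a higher mean) and complement genes 0.66 (19 kept). The summed level of the macrophage genes was 6876 to 21114 in the rich tumours and 4344 to 11034 in the poor ones, and ENT+PD1 replicates 6 and 5 had the highest sums, at 21114 and 14582. Csf1r, the growth factor receptor of macrophages, was 1269 and 1009 in those 2 tumours and 433 to 698 in the other 4, against 275 to 683. Ccl24, a chemokine for eosinophils made by macrophages, was 475 and 213 there, 72.5 in ENT+PD1+CTLA4 replicate 1, 58.5 in ENT replicate 3 and under 10 in ENT+CTLA4 replicate 6 and ENT+CTLA4+HER2 replicate 2. Arg1, an arginine-degrading enzyme of suppressive myeloid cells, was 862 and 600 in the ENT+PD1 tumours but 103 in ENT+CTLA4+HER2 replicate 2, below every poor tumour (128 to 309). The median over 19 suppressive myeloid genes was 0.29 and turned to -0.11 under median rescaling. S100a8, an abundant neutrophil protein, was 2776 in ENT+PD1+CTLA4 replicate 1, 1607 in ENT+CTLA4+HER2 replicate 2 and 1555 in ENT+CTLA4 replicate 6, all on the second cartridge. It was 357 to 903 in the other 3, within the poor range of 328 to 989, so its difference was 1.65 on the second cartridge and 0.38 on the first. An intermediate sample held more S100a8 than any rich tumour, at 11838. Neutrophil genes had a median of 0.49 and mast cell genes 0.46 over 3 genes, and the latter turned to -0.02 under median rescaling.

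Tumour cell genes were the lowest list. Of the 9 epithelial genes kept, 4 had a higher mean in the rich tumours and 5 a lower one. Their median was -0.02, which was -0.35 under median rescaling and -0.44 under quantile normalization. Epcam, an epithelial adhesion protein, was 3778 and 4151 in ENT+PD1 replicates 6 and 5, 5004 to 5418 in the next 3 rich tumours and 5971 in ENT replicate 3, against 5192 to 6927 in the poor tumours. Of the 6 rich tumours 4 lay below every poor one, and the mean difference was -0.32 ± 0.11. Cdh1 (E-cadherin) showed the same count, with 980 to 1596 against 1332 to 1818 and a difference of -0.30 ± 0.10. Itgb4, an integrin of basal epithelial cells, was 480 in ENT+CTLA4+HER2 replicate 2, 788 to 1141 in 3 others and within the poor range (1168 to 1681) in ENT+CTLA4 replicate 6 and ENT replicate 3, a difference of -0.59 ± 0.24. Erbb2, the panel's gene for HER2, was 364 to 581 in the rich tumours and 369 to 622 in the poor ones. Ceacam1, also on the list, had a higher mean in the rich tumours, by 0.28, which turned to -0.11 under median rescaling. Bst1, Nt5e and Clu, singled out with their values in view, had differences of -0.72, -0.60 and -0.58. Cell cycle and survival genes (12 kept) had a median of 0.03, or -0.32 under median rescaling, and endothelial and stromal genes (17 kept) 0.30, or -0.17.

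The differences were measured again within each cartridge, with 3 rich and 6 poor samples in each. Overall 86 genes differed by more than 1 log2 unit, and 56 genes did so on each of the cartridges. Icos differed by 3.07 on the first and 3.40 on the second, Il2rb by 1.95 and 2.04, H2-DMb2 by 2.07 and 2.26, and Cxcr6 by 1.68 and 1.81. Ccr7 differed by 1.67 and 3.32, Lck by 1.80 and 3.16, and Ms4a1 by 0.98 and 2.87, with the higher value on the second cartridge, which held the 2 tumours with the most CD3. H2-Ab1 (2.09 and 1.03) and Arg1 (1.34 and -0.07) were higher on the first, which held the ENT+PD1 tumours. The median gene differed by 0.38 and 0.32.

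**Figure D4:**
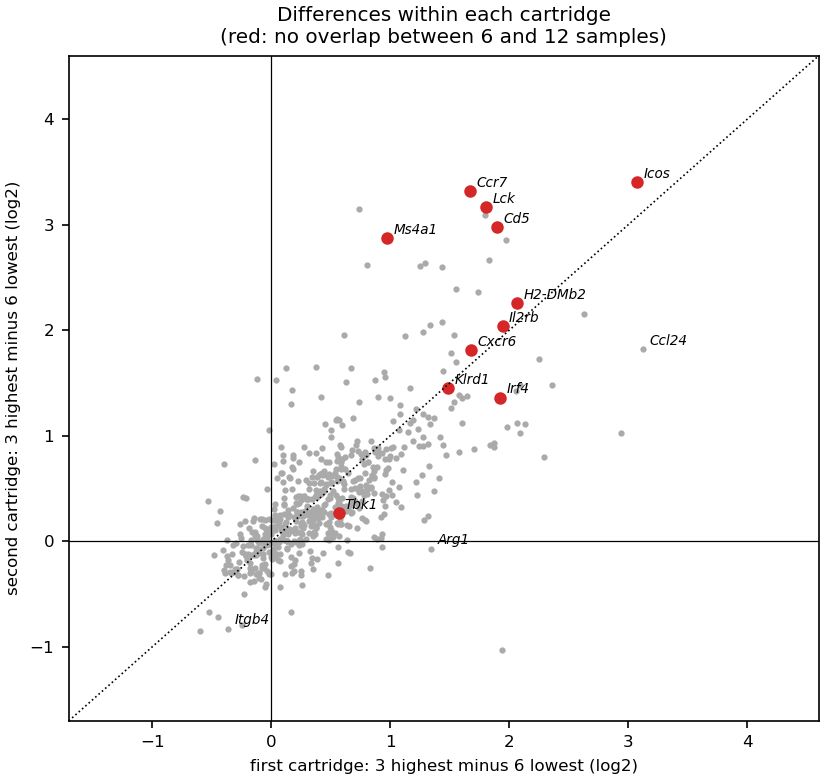
Each point is a gene, with its difference in mean log2(value + 1) between 3 highest and 6 lowest samples on the first cartridge (horizontal) and the second (vertical), and a dotted line where both are equal. The 11 genes without overlap (red) are above 0 on both as deposited, though Tbk1 turns negative overall under quantile normalization, and Ms4a1, Ccr7 and Lck lie above the line.

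Rich and poor tumours of the same treatment could be set side by side in 4 arms, with 1 or 2 rich tumours in each. In ENT+PD1, replicates 5 and 6 differed from replicate 2 by a median of 0.58 over all genes, by 1.81 over the T cell receptor list and by 1.35 over the macrophage list. In ENT+PD1+CTLA4, replicate 1 differed from replicates 2 and 5 by 0.47 over all genes, 3.73 over the T cell receptor list and 0.72 over the macrophage list. In ENT+CTLA4, replicate 6 differed from replicates 1, 2 and 5 by 0.10 over all genes, 2.17 over the T cell receptor list and 0.35 over the macrophage list. In ENT, replicate 3 differed from replicates 1, 2 and 4 by 0.13, 0.26 and -0.01. These T cell receptor medians use all 14 genes kept, of which the other 18 samples alone would keep only 7. Between the classes that choice lowered the list's median from 1.84 to 0.63, so its lead over the macrophage list rests in part on the filter. Of the 598 genes, 202 were higher in the rich tumours in all 4 arms and 14 were lower. Agreement in all 4 arms is a stricter condition than the single difference between the classes behind the 81.1% with a higher mean. These counts therefore cannot be set against that share, which itself depends on the scaling. Higher by more than 1 log2 unit were 27 genes between the ENT tumours, 183 with added PD1, 57 with added CTLA4 and 165 with both. In all 4 arms 11 were higher by that much, with each arm resting on 1 or 2 rich tumours. Those 11, singled out after their values were seen, were Icos, Lck, Cd5, H2-DMb2, Irf4, Il2ra, Nlrc5, Ccl5, Ccl22, Ccl24 and Ccr6. Among them, at least the differences of Icos, Lck, Cd5, Irf4, Nlrc5, Ccl5 and Ccl24 are set in part by background. In ENT+CTLA4 replicate 6, Ccl24 was 8.54, under that sample's negative-control limit of 8.57. The poor tumours of that arm had 3.08, 6.39 and 2.08, also under their limits. Icos differed by 1.90 between the ENT tumours, by 4.26 with added PD1, by 3.52 with added CTLA4 and by 4.17 with both.

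The 6 rich tumours differed from each other beyond their CD3 levels. Of the 598 genes, ENT+PD1 replicates 6 and 5 had 326 and 295 above all 12 poor tumours, and ENT+PD1+CTLA4 replicate 1 had 223. ENT+CTLA4+HER2 replicate 2 had 185, ENT+CTLA4 replicate 6 had 117 and ENT replicate 3 had 55. The order by this count was not the order by CD3, since ENT+CTLA4 replicate 6, next to the top for CD3, was the fifth of the 6 here. The count did follow each tumour's median difference over all genes, which was 0.69, 0.62, 0.34, 0.31, 0.11 and 0.10 in that order. Since the shift of the median gene depends on the scaling, these counts do too. Background also differed, with negative-control means of 7.0 to 10.9 counts on the first cartridge and 4.0 to 6.0 on the second. After scaling, this mean was 12.7 in ENT+PD1 replicate 5, the highest of the 24 samples, and 8.82 in replicate 6. In the poor tumours it was at most 10.5. What part background has in these counts was not tested. ENT+CTLA4 replicate 6 had a median difference of 2.03 over the T cell receptor list, 0.56 over class II genes and 0.58 over macrophage genes. For ENT+PD1 replicate 6 these were 2.11, 2.07 and 1.59. The limit that the filter sets on the T cell receptor list holds here too. ENT+CTLA4+HER2 replicate 2 had the highest median of the 6 over neutrophil genes (0.94) and interferon gamma targets (1.04). Arm and cartridge differ between these tumours too, and with 1 or 2 tumours each they cannot be told apart from the tumour itself.

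**Figure D5:**
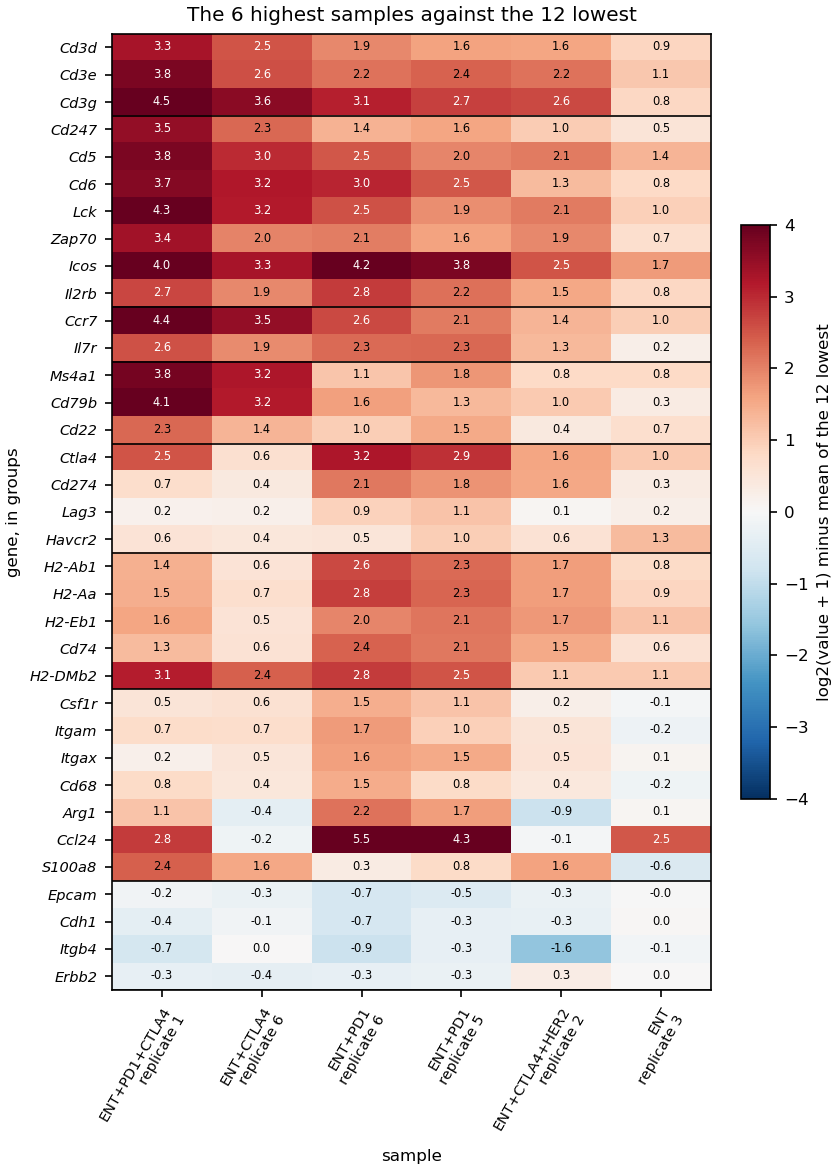
Difference of each of the 6 T-cell-rich tumours from the mean of the 12 T-cell-poor ones in log2(value + 1), for genes in groups (CD3 chains, other T cell genes, homing, B cell, checkpoint, class II, myeloid and tumour genes), in order of CD3 score, with the value printed in each cell and the colour capped at a size of 4. Cd79b is 4.08 in the first tumour and 0.34 in the last, while H2-Ab1 is highest in ENT+PD1 replicates 6 and 5.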

How the data were processed

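RNA of 24 tumour samples was measured on an nCounter instrument. The deposited table holds normalized signal, in which every sample has the same housekeeping geometric mean (346.9). Limma is named per the submitters' processing notes, with no role stated, and how the values were normalized is not given in the sources used here. Title and table name the PanCancer Immune panel and the labels' protocol a myeloid one, and the table's 750 endogenous and 20 housekeeping genes were used as they stand. Dividing each sample by 1 factor returned whole numbers for 100% of values (tolerance 0.1), leaving aside 82 values at exactly 1. Limma 3.58.1 (lmFit, eBayes with trend, R 4.3.3) was run on log2(value + 1), which understates folds of weak genes, in 22 samples without the repeat-titled pair. Benjamini-Hochberg adjustment ran over 621 genes with 20 or more in at least 4 samples, at a threshold of 0.05. On the recovered counts, edgeR 4.0.16 called 0 genes in each of the 4 comparisons and DESeq2 1.42.0 called 1 (ENT+PD1 against ENT). The fits were tested on simulated data. Counts of the repeat-titled samples differed from those of ENT+PD1 replicates 1 and 2 beyond counting error. Chi-square per degree of freedom was 10.9 and 17.7, against 4.83 to 154 for samples of 1 group. As these pairs ran on different cartridges, whether they hold RNA of the same tumours is not settled. Classes, members and gene lists were chosen with earlier results of these data known. The genes named were those without overlap, up to 4 of each list by size, a fixed set of immune and tumour genes, and others said to be named after their values were seen. The plots also show Cd247, Zap70, Il7r, Havcr2, H2-Eb1, Cd74 and Cd68, likewise chosen afterwards. Some genes are not reported here by name but were included in all counts, tests and lists. Alternatives covered scaling, pseudocount, filter, score, class size, cartridge and each sample in turn.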

Additional observations from a re-analysis of the deposited data

Results flagged for a closer look

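In ENT+PD1+CTLA4, replicate 1 lay apart from the other 3 samples for Cd3d (220.62 normalized counts) and for Cd3g (338.51). Among the 6 T-cell-rich tumours, ENT replicate 3 lay apart for Fpr2, a neutrophil receptor for formyl peptides, at 14.12, and ENT+CTLA4 replicate 6 for Ifng at 1.55. Each of these gaps exceeded Dixon's 95% critical value. They are 4 of 101 groups of values tested, and chance alone gives about 5% of such gaps.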

How the results depend on the processing

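Of 68 counts of genes without overlap recomputed under other settings, 48 stayed within 1.5 times the value reported. The 11 genes higher in the T-cell-rich tumours were 9 under median rescaling, 7 under quantile normalization, 5 with a filter at 50, 37 for 6 highest against 6 lowest and 7 for 6 highest against all 18 others. They were 4 with the score from Cd3e alone, 21 from Cd3g alone, 67 on the first cartridge and 86 on the second. In settings chosen after seeing the data they were 55 for the 5 highest samples, 5 with the filter over the other 18 samples and 20 without the 2 tumours highest in Ms4a1. Leaving out a sample gave 11 to 55. The 0 lower genes were 1 for 6 against 6, 3 by Cd3g alone, 4 on the first cartridge, 6 on the second and 0 to 1 without a sample. Smaller classes overlap less by construction, and the cause of the other moves was not tested. A cartridge term gives differences only, so no count. Tbk1 turned to -0.048 under quantile normalization, and no other named gene that lacks overlap changed sign. The 2 genes limma called for ENT+PD1 against ENT were 0 under median rescaling, quantile normalization, a fit of the compared groups only and edgeR, 1 under DESeq2, and 0 to 26 without a sample. Cd3d in ENT against vehicle was 0.042 under median rescaling, 0.053 under quantile normalization and 0.033 in edgeR. Without a sample, ENT against vehicle ranged from -0.26 to 0.034 for Cd3d, -0.55 to 0.084 for Cd3e and -0.21 to 0.19 for Cd3g, and ENT+PD1+CTLA4 against ENT+CTLA4 from -0.46 to 1.11, -0.21 to 1.43 and -0.090 to 1.84.

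With the replicate number as a block, 0 genes were called for ENT+PD1 against ENT in place of 2, and no call on a CD3 chain changed. The numbers did not pair the samples: over 30 pairs with the same number the median correlation of deviations was 0.01 (-0.45 to 0.63), and 12 exceeded 0.1. Depth limits the weakest genes: Cd8a, Gzmb and Prf1 were above the negative controls in no T-cell-poor tumour, so their differences are not sized. Among others, the differences of Icos, Lck, Cd5, Cd6, Cd4, Cxcr6, Irf4, Klrd1, Nlrc5, Ccl5 and Ccl24 are set in part by background.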
